A study of Arabidopsis thaliana with 12 samples.

Results

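The 10 genes described here are the chromatin regulators VIN3, VRN5 and VEL1 of the VIN3 family, the histone demethylases REF6, ELF6 and JMJ13, and the trithorax-type genes ATX1, ATX2, SDG8 and ULT1. They were chosen by gene identifier from 26925 genes listed in dissected siliques of Arabidopsis thaliana. All 10 passed the filter on low values, which kept the 19946 genes that reached 1 TPM in 3 or more of the 12 libraries. TPM, the deposited unit, is a share of a library's total that is scaled by gene length, so levels of different genes can be set side by side.

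The RNA came from wild-type Col-0 and from lhp1-6, a mutant of LIKE HETEROCHROMATIN PROTEIN 1 (LHP1), each taken as seeds and as the fruit left after the seeds were removed. All plants were kept at 22 °C up to bolting, and after it days were at 16 °C and nights at 14 °C. Seeds and fruit were separated by hand 14 to 15 days after pollination, when the cotyledons of the embryo bend. Each of the 4 groups held 3 libraries, each from a pool of 3 to 5 siliques, and as the labels do not say that the pools came from separate plants, a p-value reflects the spread among these samples only, and that spread may be technical.

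Polycomb repressive complex 2 (PRC2) places the repressive mark H3K27me3, which LHP1 binds. VIN3, VRN5 and VEL1 are PHD-finger proteins that join PRC2 at the floral repressor gene FLC, where VIN3 is known as the member induced by long cold. REF6, ELF6 and JMJ13 are Jumonji proteins that remove H3K27me3, and in embryos ELF6 is known to take part in resetting FLC. Trithorax-type proteins act against Polycomb repression: ATX1 and ATX2 methylate H3K4, SDG8 methylates H3K36, and ULT1 is a SAND-domain factor.

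LHP1 itself was at 15.3 to 18.0 TPM in Col-0 fruit, 20.8 to 23.7 in Col-0 seed, 0.699 to 0.858 in lhp1-6 fruit and 0.310 to 0.382 in lhp1-6 seed, so each library matched its genotype label. Seed storage transcripts were found in the fruit libraries too, where the 10 storage protein and oil body markers summed to 312 to 3077 TPM in Col-0 and 6951 to 10572 in lhp1-6. Their estimated seed share was 23.3%, 3.65% and 5.56% in Col-0 replicates 1 to 3 and 8.32%, 10.9% and 9.12% in lhp1-6, and Col-0 fruit replicate 1 stood apart. The 7 valve and valve margin markers summed to 693 to 947 TPM in wild-type fruit and 1026 to 1112 in lhp1-6 fruit, against 287 to 318 and 178 to 201 in the seeds, where FUL, IND and ADPG1 stayed under 1 TPM in each library. Most of the seed sums came from SHP2, a MADS-box gene of the valve margin, which was higher in seed (236.8 to 266 TPM in Col-0 and 138 to 156 in lhp1-6) than in fruit (77.3 to 117 and 99.8 to 110.2). SHP1 was at 30.6 to 34.0 TPM in Col-0 seed and 32.1 to 40.5 in Col-0 fruit, and at 23.9 to 26.2 in lhp1-6 seed and 50.5 to 62.7 in lhp1-6 fruit. In the seeds the same 10 storage markers summed to 7771 to 14201 TPM in Col-0 and 39833 to 110703 in lhp1-6, and the 5 seed coat markers to 2014 to 2254 and 1268 to 1375. The 5 embryo regulators summed to 1063 to 1236 TPM in Col-0 seed and 1093 to 1186 in lhp1-6 seed, and the 6 endosperm markers to 955 to 1524 and 1319 to 1790, so both sums overlapped between genotypes. Most of the endosperm sum was EPR1, between 834 and 1718 TPM in each seed library. ZOU and ALE1 were lower in lhp1-6 seed without overlap (36.3 to 42.3 TPM against 18.7 to 23.4, and 64.1 to 81.1 against 37.9 to 52.2). LEC1 was lower there too (138 to 166 TPM against 72.7 to 107), while FUS3, ABI3 and L1L, at up to 765 TPM, overlapped between genotypes. AGL62 was under 1 TPM in the seeds and at 1.78 to 3.29 in Col-0 fruit and 2.53 to 3.25 in lhp1-6 fruit. WOX2, FWA and PHE1 were near 0 in the seeds of both genotypes. Their part in the results below was not tested, except where a value with the seed share taken off is given.

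Between genotypes, VIN3 rose and ATX1 and VEL1 fell in lhp1-6 fruit, and VIN3 fell in lhp1-6 seed. These were 3 of 10 genes in fruit, where 14.9% of the 19946 genes tested passed (5.75% higher and 9.19% lower), and 1 of 10 in seed, where 12.1% passed (1.85% higher and 10.2% lower). The effect of lhp1-6 differed between tissues for VIN3 alone, 1 of 10, beside 5.51% of all genes (1.72% above 0 and 3.8% below). The test was limma's moderated test on log2(TPM + 1), with an adjusted p under 0.05 taken as past the threshold.

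VIN3 (AT5G57380) was the lowest of the 10 genes in Col-0 fruit, Col-0 seed and lhp1-6 seed, and the genotypes stood in opposite order in the 2 tissues. Its level was 2.98, 1.94 and 1.74 TPM in the Col-0 fruit libraries and 4.44, 4.64 and 4.20 in lhp1-6 fruit. In seed the level was 8.99, 9.89 and 9.88 TPM in Col-0 and 6.44, 6.78 and 4.95 in lhp1-6. Every lhp1-6 fruit library was above every Col-0 fruit library, every lhp1-6 seed library was below every Col-0 seed library, and no 2 of the 4 groups overlapped. Among all genes tested, the genotypes were without overlap in fruit for 26.9% and in seed for 48.2%, and all 4 groups lay apart for 7.65%, among the 10 genes for VIN3 and ATX2. Of the 10 genes, 4 did not overlap between genotypes in fruit (1 above and 3 below Col-0, beside 11.3% and 15.6% of all genes) and 6 in seed (all 6 below, beside 41.5%).

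In fruit, VIN3 rose in lhp1-6 by 0.77 ± 0.15 on the log2(TPM + 1) scale (SE, n = 3 per group, adjusted p = 0.00687 by limma with Benjamini-Hochberg adjustment over all genes tested). The ratio of mean levels was 1.99. Without Col-0 fruit replicate 1 the change was 0.93 (limma adjusted p = 0.000513), and after removal of the seed share from the fruit libraries it was 1.20 (adjusted p = 0.000222). That removal takes more VIN3 off Col-0 fruit by construction, as VIN3 was higher in Col-0 seed, so the larger value adds no support. The call was lost when the 6 fruit libraries were fitted alone (limma adjusted p = 0.0637) and with same-numbered fruit libraries as a block (adjusted p = 0.173). In bulk tissue, a change in the number of cells that hold a transcript and a change in RNA per cell cannot be told apart.

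In seed, VIN3 fell by 0.59 ± 0.15 on the log2 scale in lhp1-6 (SE, n = 3 per group, limma adjusted p = 0.0293), with a ratio of means of 0.632. This call did not hold when libraries were rescaled by median of ratios (-0.44, limma adjusted p = 0.0972) or quantile normalised (-0.40, adjusted p = 0.0584). It was also lost without any 1 Col-0 seed library or without lhp1-6 seed replicate 1 or 3 (limma adjusted p up to 0.126). The difference between the effects, seed minus fruit, was -1.37 ± 0.21 (SE, limma adjusted p = 0.00621). It stayed past the threshold in each of its 21 alternatives, from -1.80 after removal of the seed share to -0.79 with a pseudocount of 5, and with a highest limma adjusted p of 0.0337, the value with same-numbered fruit and seed libraries as a block.

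VIN3 was 1 of 54 genes among the 19946 tested (0.271%) that were called higher in lhp1-6 fruit and lower in lhp1-6 seed. Another of the 54 was SEP3, a floral organ identity gene and known Polycomb target, which rose by 0.77 in fruit and fell by 0.81 in seed on the log2 scale (limma adjusted p = 0.00153 and 0.00252). SEP3 was at 194, 195 and 180 TPM in wild-type fruit and at 349, 309 and 315 in lhp1-6 fruit, and at 35.3, 41.1 and 42.3 in Col-0 seed and 21.3, 26.2 and 19.1 in lhp1-6 seed. The reverse pattern was called for 13 genes (0.0652%). Both counts are from the common fit, where the calls in seed were 369 higher and 2041 lower. After median-of-ratios rescaling the seed calls were 474 higher and 523 lower, and VIN3 was not among them. The 2 patterns were not counted in that fit.

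The 250 bases before the annotated VIN3 start are shown because VIN3 gave the only difference between tissues that passed the test among the 10 genes. In TAIR10.1 they lie at chr5:23249505-23249754 on the minus strand, and are printed 5′ to 3′ on the gene's strand. Capitals mark the G-box CACGTG and the evening element core AATATCT, which was found once on each strand.
VIN3: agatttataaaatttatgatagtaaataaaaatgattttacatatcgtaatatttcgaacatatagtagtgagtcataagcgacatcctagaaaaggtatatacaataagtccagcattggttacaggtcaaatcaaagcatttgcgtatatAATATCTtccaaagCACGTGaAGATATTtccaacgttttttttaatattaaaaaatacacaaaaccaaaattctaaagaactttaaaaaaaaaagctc
The G-box lay 84 bases before the start and the evening element cores began 98 and 77 bases before it. Of 27443 protein-coding genes, 1780 (6.49%) held a G-box and 2745 an evening element core in the same window. Both motifs were added to the search after the sequences were seen. The search also took in the telobox AAACCCTA, the repeat GAGAGA and the REF6 motif spelled CTCTGTTT, CTCTGTTC, CTCTGCTT or CTCTGCTC, on both strands. A match is a run of letters in this window and shows no binding.

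VEL1 (AT4G30200), a VIN3 homologue also called VIL2 that works with PRC2 in the control of flowering, was the highest of the 10 genes in fruit. Its level was 48.3, 45.8 and 49.1 TPM in wild-type fruit and 38.8, 37.5 and 39.1 in lhp1-6 fruit. Its seed levels were 57.1, 66.7 and 73.6 TPM in Col-0 and 52.1, 58.4 and 53.5 in lhp1-6. All lhp1-6 fruit libraries lay below those of Col-0, while the seed libraries of the genotypes overlapped. In fruit it fell by 0.30 ± 0.09 on the log2 scale (SE, n = 3 per group, limma adjusted p = 0.0401), a call that was lost in 12 of 22 alternatives (adjusted p up to 0.241). Among these were the fits without Col-0 fruit replicate 2 or 3, Col-0 seed replicate 2, any 1 lhp1-6 fruit library, or lhp1-6 seed replicate 1 or 3. The seed change of -0.26 ± 0.09 did not pass (SE, limma adjusted p = 0.0804), but did without Col-0 seed replicate 1 (-0.35, adjusted p = 0.028). Over the alternatives this change ran from -0.35 to -0.085, with a limma adjusted p from 0.0036 to 0.643. The difference of the effects was 0.05, with a 95% interval from -0.23 to 0.32 (limma adjusted p = 0.854).

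VRN5 (AT3G24440), the partner of VIN3 at FLC, did not pass the test between genotypes. It was at 10.5, 9.96 and 10.6 TPM in wild-type fruit and at 11.2, 13.3 and 10.6 in lhp1-6 fruit, with overlapping ranges. In seed it was 20.7, 24.3 and 23.0 TPM in Col-0 and 19.0, 23.9 and 19.5 in lhp1-6, again with overlap. The intervals of the genotype difference ran from -0.09 to 0.39 log2 units in fruit and from -0.36 to 0.12 in seed (95%). The ratio of VIN3 to VEL1 levels was 0.0465 ± 0.0136 in Col-0 fruit and 0.115 ± 0.00811 in lhp1-6 fruit (SD, n = 3), and it was 0.147 ± 0.0117 and 0.111 ± 0.0162 in the seeds. The ranges of the genotypes did not overlap in fruit or in seed, and how often this holds for other pairs of genes was not tested.

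**Figure D1:**
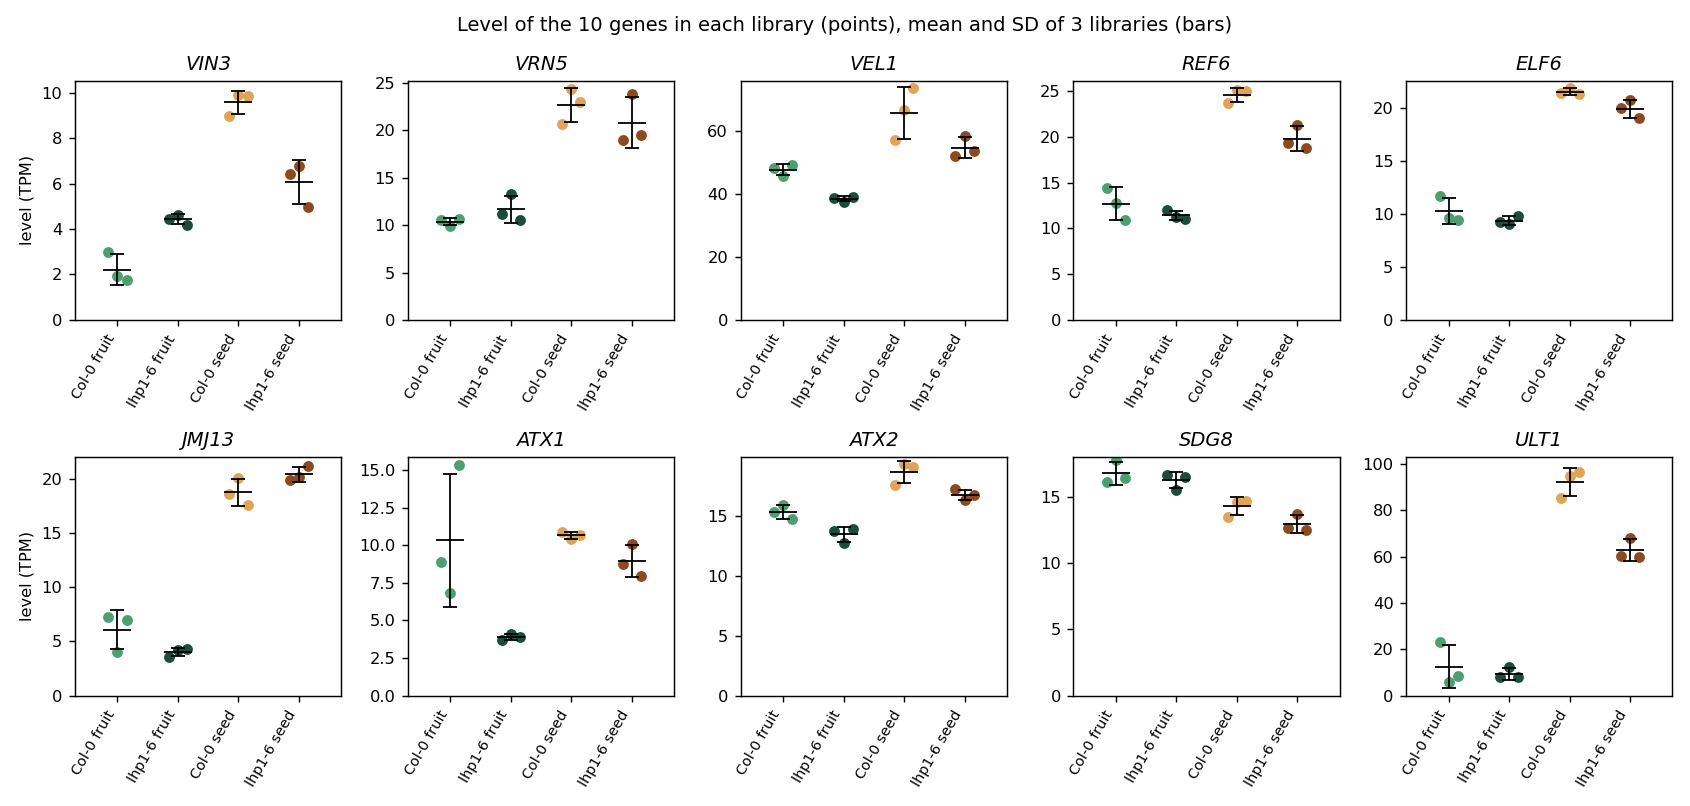
Level of each of the 10 genes in TPM (y axes from 0) in the 3 libraries of each group (points), with the mean and SD (bars). VIN3 is higher in lhp1-6 than in Col-0 fruit and lower in lhp1-6 than in Col-0 seed, ATX1 is low in lhp1-6 fruit with Col-0 fruit spread from 6.83 to 15.3 TPM, and ULT1 is high in seed.

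Among the H3K27 demethylases, none of the 3 genes passed the test between genotypes in either tissue. REF6 (AT3G48430), which binds DNA through zinc fingers, was at 14.4, 12.8 and 10.9 TPM in wild-type fruit and at 11.97, 11.27 and 11.02 in lhp1-6 fruit, with overlap. In seed the level was 23.7, 25.1 and 25.0 TPM in Col-0 and 19.3, 21.3 and 18.7 in lhp1-6, all below Col-0. That seed difference of -0.30 ± 0.10 on the log2 scale did not pass (SE, limma adjusted p = 0.0686), though it did in 6 of 22 alternatives, among them the fits without Col-0 fruit replicate 1 or 3 (adjusted p = 0.0261 and 0.0334). Over the alternatives the value ran from -0.35 to -0.13, with a limma adjusted p of up to 0.4155.

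ELF6 (AT5G04240), the close relative of REF6, was at 11.7, 9.67 and 9.44 TPM in wild-type fruit and at 9.22, 9.06 and 9.84 in lhp1-6 fruit. Its seed levels were 21.5, 21.9 and 21.4 TPM in Col-0 and 20.1, 20.8 and 19.1 in lhp1-6. Ranges in fruit overlapped and the seed ranges did not, and neither genotype difference passed (-0.11 in both tissues, limma adjusted p = 0.417 and 0.429). REF6 stood at 1.24 ± 0.0842 times ELF6 in Col-0 fruit, 1.22 ± 0.0914 in lhp1-6 fruit, 1.14 ± 0.0330 in Col-0 seed and 0.991 ± 0.0319 in lhp1-6 seed (SD, n = 3).

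JMJ13 (AT5G46910), which is known to repress flowering, was at 7.25, 4.01 and 6.98 TPM in wild-type fruit and at 3.60, 4.19 and 4.25 in lhp1-6 fruit. In seed it was 18.6, 20.0 and 17.6 TPM in Col-0 and 19.8, 20.2 and 21.1 in lhp1-6. Col-0 fruit replicate 2 lay among the mutant libraries and the seed ranges overlapped. The fruit difference of -0.46 ± 0.17 did not pass (SE, limma adjusted p = 0.085). It passed without Col-0 fruit replicate 2 (-0.70, limma adjusted p = 0.0022) and after removal of the seed share (-0.70, adjusted p = 0.0109). Other alternatives brought it as low as -0.28 in size, with a limma adjusted p of up to 0.419. JMJ13 was higher in seed, so the removal lowers its fruit levels by construction, and the values after it are not stronger evidence. The effect in seed minus that in fruit was 0.58 ± 0.23 (SE, limma adjusted p = 0.168), and it passed under the same 2 alternatives (0.81 and 0.82, adjusted p = 0.0089 and 0.0372). Its lowest value over the alternatives was 0.38, and its highest limma adjusted p 0.311.

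Among the trithorax-type genes, ATX1 (AT2G31650), which trimethylates H3K4, fell in lhp1-6 fruit and gave the largest genotype change of the 10 genes there. Its level was 8.89, 6.83 and 15.3 TPM in wild-type fruit and 3.71, 4.10 and 3.88 in lhp1-6 fruit. In seed the level was 10.9, 10.4 and 10.7 TPM in Col-0 and 8.78, 10.07 and 7.96 in lhp1-6. Mutant fruit libraries lay below all 9 others, and Col-0 fruit replicate 3 was the highest library of all.

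The fruit change was -1.14 ± 0.21 on the log2 scale (SE, n = 3 per group, limma adjusted p = 0.00567), a ratio of means of 0.377. It was -1.21 without Col-0 fruit replicate 1 and -1.28 with the seed share taken off (limma adjusted p = 0.00419 and 0.0028). Each fit that left out 1 library kept the call, and it was lost with the 6 fruit libraries alone (limma adjusted p = 0.0703). In seed the change was -0.24 ± 0.21 (limma adjusted p = 0.482). The difference of the effects, 0.90 ± 0.30 on the log2 scale, did not pass (limma adjusted p = 0.106), and passed with array weights, after removal of the seed share and without Col-0 fruit replicate 2 (adjusted p = 0.0333, 0.0482 and 0.0316). The ratio of ATX1 to ATX2 levels was 0.683 ± 0.316 in Col-0 fruit, 0.291 ± 0.0279 in lhp1-6 fruit, 0.574 ± 0.0412 in Col-0 seed and 0.535 ± 0.0738 in lhp1-6 seed (SD, n = 3).

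The windows before ATX1 and VEL1 are shown because these genes fell in lhp1-6 fruit. They lie at chr2:13462432-13462681 for ATX1 and chr4:14790502-14790751 for VEL1 in TAIR10.1, both on the minus strand, and are printed on the gene's strand. Capitals mark an evening element core on the opposite strand in ATX1 and 2 overlapping GAGAGA repeats on the opposite strand in VEL1.
ATX1: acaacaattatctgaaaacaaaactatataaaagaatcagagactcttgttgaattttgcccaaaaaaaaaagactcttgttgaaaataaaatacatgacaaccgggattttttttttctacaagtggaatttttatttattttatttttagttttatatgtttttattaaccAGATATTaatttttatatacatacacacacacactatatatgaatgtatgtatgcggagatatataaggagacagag
VEL1: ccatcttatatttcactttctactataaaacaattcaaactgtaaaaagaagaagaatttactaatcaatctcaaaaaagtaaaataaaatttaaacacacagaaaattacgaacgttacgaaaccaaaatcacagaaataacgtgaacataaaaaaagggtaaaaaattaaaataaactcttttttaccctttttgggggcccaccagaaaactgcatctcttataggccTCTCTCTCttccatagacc
GAGAGA was found in 20.6% of the windows of all protein-coding genes, and among the 10 also before REF6. An evening element core was also found before REF6 and SDG8. No telobox (4.49% of all windows) and no REF6 motif (5.77%) was found before any of the 10 genes. The GC content of these windows ran from 24.8% to 36.8%, with that of ELF6 the highest.

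ATX2 (AT1G05830), the near copy of ATX1 that dimethylates H3K4, was at 15.3, 15.9 and 14.8 TPM in wild-type fruit and at 13.7, 12.7 and 13.9 in lhp1-6 fruit. Its seed levels were 17.6, 19.3 and 19.0 TPM in Col-0 and 17.2, 16.3 and 16.7 in lhp1-6. Mutant libraries lay below those of Col-0 in both tissues, by ratios of means of 0.878 and 0.898. Neither difference passed (-0.18 and -0.15, limma adjusted p = 0.12 and 0.189). No 50-base run of an exon of any of the 10 genes recurred elsewhere in TAIR10.1, ATX1 and ATX2 included.

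SDG8 (AT1G77300), the H3K36 methyltransferase needed for FLC expression, varied least of the 10 genes. It was at 16.1, 17.8 and 16.5 TPM in wild-type fruit, 16.7, 15.6 and 16.5 in lhp1-6 fruit, 13.5, 14.7 and 14.7 in Col-0 seed and 12.7, 13.8 and 12.5 in lhp1-6 seed. The genotypes overlapped in both tissues, with differences of -0.04 and -0.13 (limma adjusted p = 0.748 and 0.265).

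ULT1 (AT4G28190), known for activating AG in the flower, spread most within Col-0 fruit. It was at 23.2, 5.98 and 8.35 TPM in wild-type fruit and at 7.81, 12.2 and 7.90 in lhp1-6 fruit. In seed it was 85.2, 94.8 and 96.7 TPM in Col-0 and 60.3, 68.2 and 59.9 in lhp1-6. Col-0 fruit replicate 1, with the highest seed share, was the highest fruit library, and all mutant seed libraries were below those of Col-0.

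For ULT1, neither genotype difference passed in the common fit (-0.20 ± 0.36 in fruit and -0.55 ± 0.36 in seed, limma adjusted p = 0.759 and 0.333). The fruit value turned to 0.32 without Col-0 fruit replicate 1, and the seed difference then passed (-0.55, limma adjusted p = 0.0347), as it did in the 6 seed libraries alone (adjusted p = 0.0088). The difference of the effects was -0.34 ± 0.51 (SE, limma adjusted p = 0.726), and -0.87 without Col-0 fruit replicate 1 (adjusted p = 0.0295). After median-of-ratios rescaling the seed difference was -0.38 (limma adjusted p = 0.646). Its paralogue ULT2 had a similar order of libraries, with 17.4, 3.44 and 6.50 TPM in wild-type fruit and 4.94, 9.44 and 4.99 in lhp1-6 fruit, against 60.8 to 70.4 in Col-0 seed and 29.7 to 38.7 in lhp1-6 seed.

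**Figure D2:**
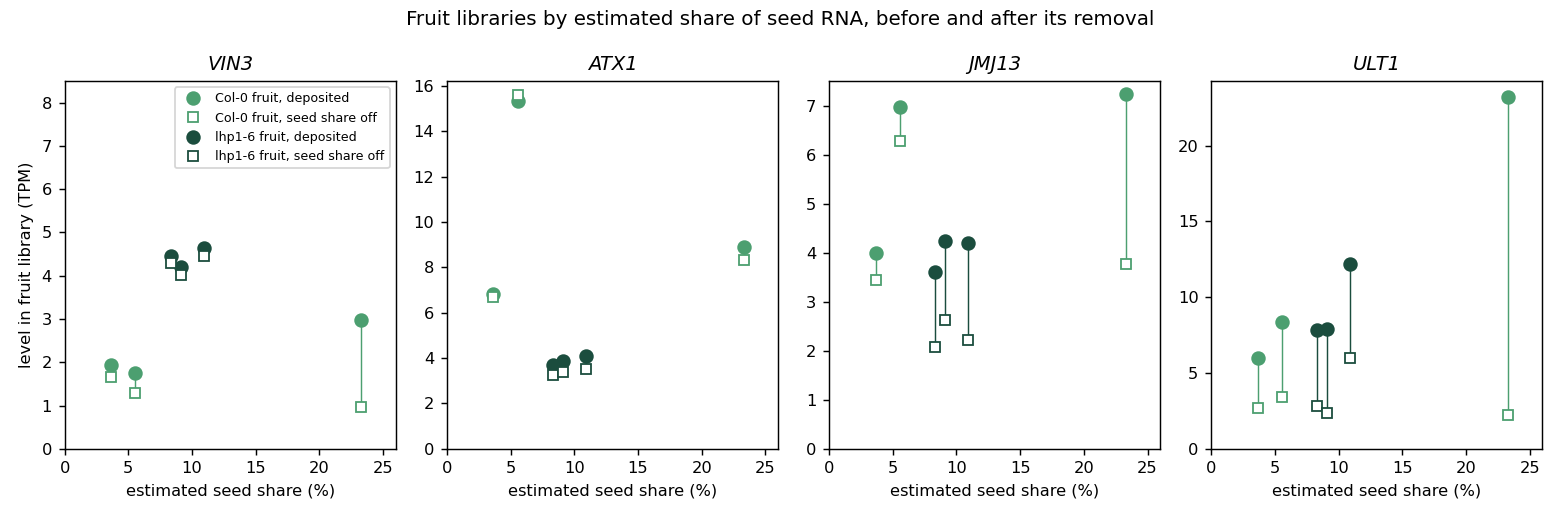
Levels of VIN3, ATX1, JMJ13 and ULT1 in TPM in the 6 fruit libraries (y axes from 0) against the estimated share of seed RNA in percent, as deposited (filled circles) and after that share was taken off (open squares). ULT1 falls from 23.2 to 2.25 TPM in Col-0 fruit replicate 1, while VIN3 stays higher in lhp1-6 and ATX1 stays lower.

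The estimated seed share moved the genes with the steepest seed excess most. After its removal ULT1 was at 2.25, 2.71 and 3.41 TPM in wild-type fruit and at 2.82, 5.97 and 2.39 in lhp1-6 fruit. VIN3 was at 0.972, 1.65 and 1.28 TPM in wild-type fruit and at 4.30, 4.46 and 4.01 in lhp1-6 fruit. The wider separation of the genotypes follows from how the share is removed and adds no support. VIN3 was higher in Col-0 seed (mean 9.59 TPM) than in lhp1-6 seed (6.06), so more was taken off Col-0 fruit. ATX1 was at 8.34, 6.69 and 15.6 TPM against 3.24, 3.51 and 3.38, with no overlap.

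At an unadjusted p under 0.05 by limma, the counts between genotypes were 5 of 10 in fruit and 3 of 10 in seed, beside 5927 and 5879 of all genes. Of the 10 estimates, 8 were below 0 in fruit and 9 in seed, with medians of -0.16 and -0.19 beside -0.03 and -0.15 over all genes. Median-of-ratios rescaling moved the seed median of all genes to 0, and 5 of the 10 seed estimates were then below 0. It also moved the share of higher calls in seed from 15.3% to 47.5%, and in fruit and in the difference between tissues from 38.5% to 46.3% and from 31.2% to 49.9%. Quantile normalisation gave 47.1%, 52.5% and 44.5%.

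**Figure D3:**
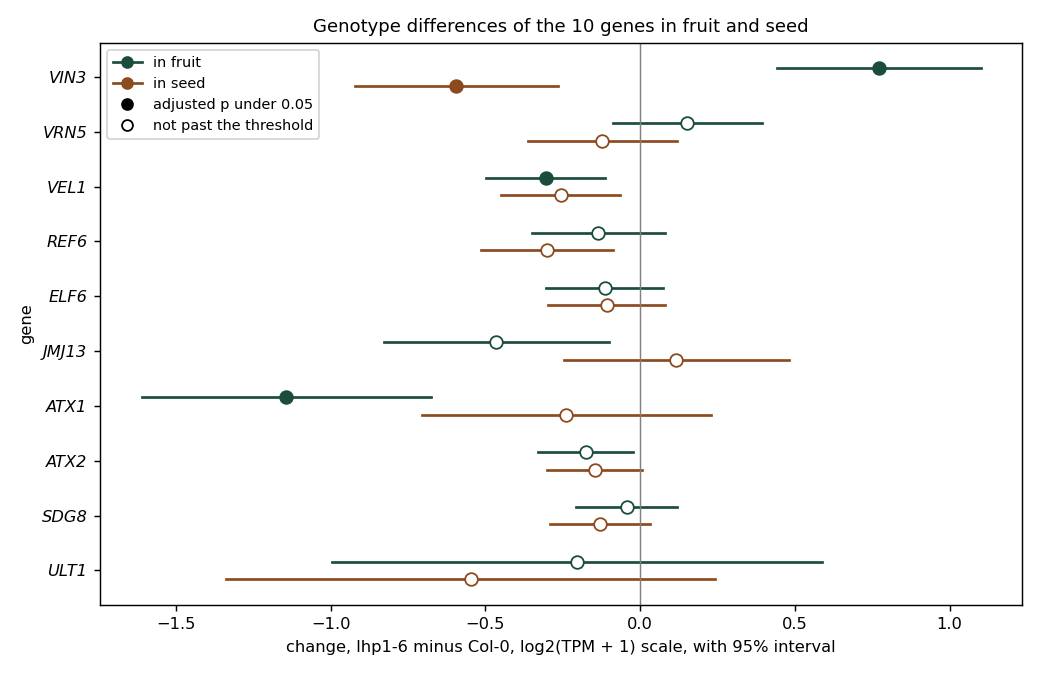
Change of each of the 10 genes in lhp1-6 against Col-0 on the log2(TPM + 1) scale (x axis) in fruit and in seed, with 95% intervals from limma; filled points passed the adjusted threshold. VIN3 is the gene with filled points on opposite sides of 0, at 0.77 in fruit and -0.59 in seed.

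Between tissues, most of the 10 genes were higher in seed. In Col-0, 9 of 10 passed the test, 8 higher and 1 lower, where 83% of all genes tested passed, 45.3% higher and 37.7% lower. In lhp1-6 all 10 passed, 9 higher and 1 lower, beside 80.4% of all genes, 39.3% higher and 41.1% lower. The ranges of seed and fruit did not overlap for 9 of 10 in Col-0 and 10 of 10 in lhp1-6, beside 86% and 83.2% of all genes. The medians were 0.96 in Col-0 and 0.76 in lhp1-6, beside 0.12 and -0.02 over all genes.

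ULT1 had the steepest seed excess, with a log2 difference of 3.00 ± 0.36 in Col-0 and 2.66 ± 0.36 in lhp1-6 (SE, n = 3 per group, limma adjusted p = 1.56e-05 and 4.42e-05), or ratios of means of 7.37 and 6.76. It was the highest of the 10 genes in seed and the fifth in Col-0 fruit. With the seed share taken off, its differences were 4.63 and 3.83 (limma adjusted p = 6.55e-09 and 3.31e-08). That step widens the difference of a gene high in seed by construction, so these values are not stronger evidence. JMJ13 followed in lhp1-6, at 2.09 ± 0.17, and was at 1.51 ± 0.17 in Col-0 (limma adjusted p = 7.14e-07 and 8.12e-06).

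The demethylases REF6 and ELF6 and the family members VRN5 and VEL1 were higher in seed in both genotypes. REF6 differed by 0.91 ± 0.10 in Col-0 and 0.74 ± 0.10 in lhp1-6, and ELF6 by 1.01 ± 0.09 in both (SE, limma adjusted p from 1.31e-06 to 3.52e-05). VRN5 differed by 1.06 ± 0.11 and 0.78 ± 0.11, and VEL1 by 0.45 ± 0.09 and 0.50 ± 0.09. The difference of the tissue effects between genotypes did not pass for any of these 4 genes, with 95% intervals that ran from -0.62 at the lowest to 0.32 at the highest.

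VIN3 was 4.32 times higher in seed than in fruit in Col-0 (1.74 ± 0.15 on the log2 scale, SE, limma adjusted p = 1.48e-06) and 1.37 times higher in lhp1-6 (0.37 ± 0.15, adjusted p = 0.0388). The call in lhp1-6 was lost with same-numbered fruit and seed libraries as a block (limma adjusted p = 0.0575), at a pseudocount of 0.1, and without the filter. It was also lost without Col-0 seed replicate 2 or 3, any 1 lhp1-6 fruit library, or lhp1-6 seed replicate 1 or 2 (limma adjusted p up to 0.129). ATX1 did not pass in Col-0 (0.11 ± 0.21, SE, limma adjusted p = 0.635), and passed without Col-0 fruit replicate 3 (0.41, adjusted p = 0.0123). In lhp1-6 it was higher in seed by 1.02 ± 0.21 (limma adjusted p = 0.00102).

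ATX2 was slightly higher in seed, by 0.27 ± 0.07 in Col-0 and 0.30 ± 0.07 in lhp1-6 (SE, limma adjusted p = 0.00407 and 0.00227), and the Col-0 call did not hold once libraries were rescaled by median of ratios (0.11, adjusted p = 0.182). SDG8 was the only 1 of the 10 genes lower in seed, with differences of -0.22 ± 0.07 in Col-0 and -0.30 ± 0.07 in lhp1-6 (limma adjusted p = 0.0171 and 0.00275). Its Col-0 call was lost without Col-0 fruit replicate 2 or Col-0 seed replicate 1 (limma adjusted p = 0.0657 and 0.0698).

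**Figure D4:**
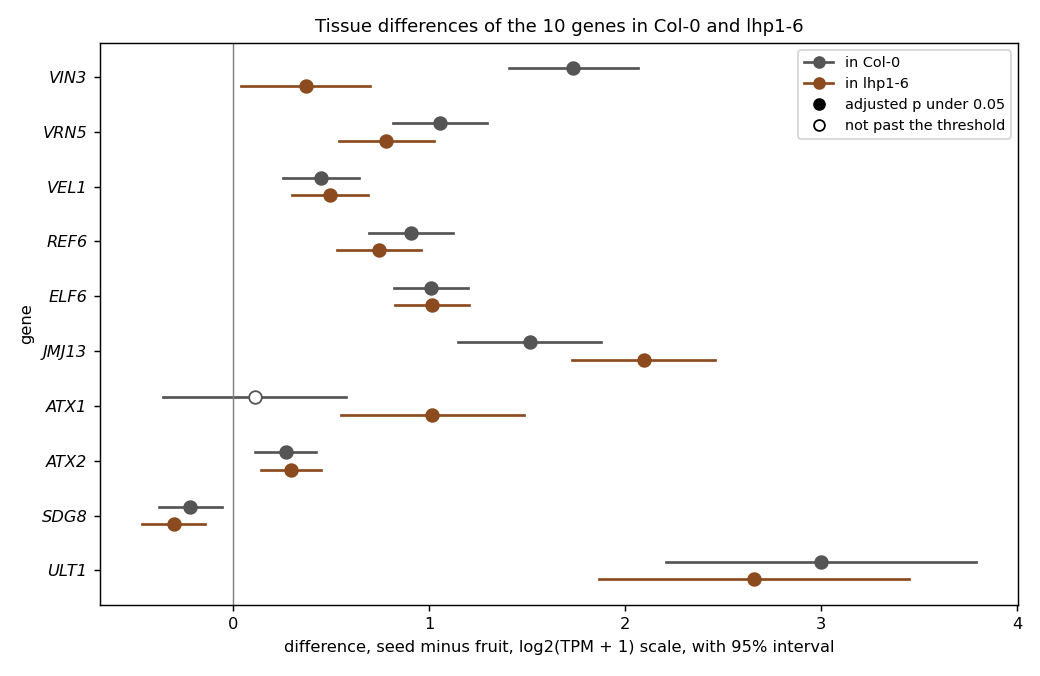
Difference between seed and fruit for each of the 10 genes on the log2(TPM + 1) scale (x axis) in Col-0 and in lhp1-6, with 95% intervals from limma; filled points passed the adjusted threshold. ULT1 lies farthest above 0 in both genotypes, SDG8 below 0 in both, and VIN3 drops from 1.74 in Col-0 to 0.37 in lhp1-6.

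Summed over the classes, the 3 VIN3 family genes held 60.3 ± 2.28 TPM in wild-type fruit and 54.6 ± 0.772 in lhp1-6 fruit, and 98.1 ± 10.102 and 81.6 ± 6.54 in the seeds (SD, n = 3). The 3 demethylases held 29.1 ± 3.78 and 24.8 ± 0.297 TPM in fruit and 64.9 ± 1.899 and 60.1 ± 1.87 in seed. The 4 trithorax-type genes held 55.0 ± 8.54 and 42.9 ± 1.44 TPM in fruit and 136 ± 7.52 and 101 ± 5.97 in seed. VEL1 made up most of the first sum in each group, and ULT1 most of the last in Col-0 seed and lhp1-6 seed.

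By order of mean level, VEL1, SDG8 and ATX2 were the top 3 in fruit of both genotypes, each without overlap with the next by mean except ATX2 with VRN5 in lhp1-6. Genes further down did reach them: ULT1 in Col-0 fruit replicate 1 lay above every Col-0 fruit library of SDG8 and ATX2, and ATX1 in replicate 3 lay within the ATX2 range. In Col-0 fruit REF6, ULT1, VRN5, ATX1 and ELF6 followed, and none of these neighbours was parted by its range. In seed ULT1 and VEL1 led in both genotypes, and ATX1 and VIN3 closed the order without overlap. Among all listed genes, VIN3 lay at percentile 35.8 in Col-0 fruit, 43.4 in lhp1-6 fruit, 52.5 in Col-0 seed and 48.1 in lhp1-6 seed.

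Of 48 tested genes in 5 lists of the same pathways, 4 passed the test between genotypes in fruit and 4 in seed (8.33% in both tissues, beside 14.9% and 12.1% of all genes), and the effect differed between tissues for 2 (4.17%, beside 5.51%). VEL2 and VEL3, the remaining VIN3 relatives, reached at most 0.310 TPM and were not tested. Of 12 PRC2 core genes and VEL partners, 10 were tested: VAL2, a B3-domain protein that helps bring PRC2 to FLC, fell in fruit (-0.44, limma adjusted p = 0.0397), and SWN, a catalytic subunit of PRC2, fell in seed (-0.31, adjusted p = 0.035). SWN was also the 1 gene of that list whose effect differed between tissues (-0.57, limma adjusted p = 0.0214, lost with the block at 0.0567 and in 3 of the 12 fits without 1 library). It was at 56.7, 63.8 and 52.1 TPM in wild-type fruit and 70.2, 72.3 and 63.8 in lhp1-6 fruit, and at 40.1, 43.4 and 44.2 in Col-0 seed and 35.6, 33.4 and 33.1 in lhp1-6 seed.

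Of 11 further histone demethylases, 10 were tested, and JMJ30, an H3K27 demethylase under control of the circadian clock, was the 1 that rose in lhp1-6 fruit. It was at 15.8, 18.5 and 21.9 TPM in wild-type fruit and at 34.4, 49.2 and 34.5 in lhp1-6 fruit, with no overlap. The change was 1.02 ± 0.15 on the log2 scale (SE, n = 3 per group, limma adjusted p = 0.00178), or a ratio of 2.10, and it held in 21 of 22 alternatives. Its libraries in seed were at 35.8, 39.0 and 45.3 TPM in Col-0 and at 46.4, 50.4 and 50.8 in lhp1-6, where none of the 10 passed.

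Of 9 tested SET-domain and trithorax genes beside the 4 above, ATXR3 fell in fruit (-0.27, limma adjusted p = 0.0348) and ATX3 in seed (-0.32, adjusted p = 0.0426), both H3K4 methyltransferases. Of 9 COMPASS and Paf1 complex genes, none passed in fruit by limma, with 1 at an unadjusted p under 0.05, and WDR5A, a core COMPASS subunit, fell in seed (-0.43, adjusted p = 0.0487). Of 10 chromatin remodellers of the trithorax group, CHR12 fell in fruit (-0.31, limma adjusted p = 0.0218) and SWI3B in seed (-0.40, adjusted p = 0.0125). The effect on BSH, a SWI/SNF subunit, differed between tissues (-0.68, limma adjusted p = 0.0342, lost with the block at 0.0873 and in 9 of the 12 fits without 1 library). List medians lay between -0.12 and -0.05 in fruit and between -0.20 and -0.15 in seed, beside -0.03 and -0.15 for all genes. After median-of-ratios rescaling none of the seed calls of SWN, ATX3, WDR5A and SWI3B held, and they were lost in 6, 9, 9 and 3 of the 12 fits without 1 library, and the fruit calls of VAL2, ATXR3 and CHR12 were lost in 15, 12 and 5 of 22 alternatives.

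Between tissues most of these lists leaned to seed. Of 10 tested PRC2 and partner genes, 8 were higher and 2 lower in Col-0 seed, among them VAL1 and FIE higher (1.84 and 1.55, limma adjusted p = 1.65e-06 and 1.97e-06) and VAL2 lower (-1.51, adjusted p = 1.15e-06). Of 10 other demethylases tested 5 were higher, near the share of all genes, and 2 lower. LDL1 was higher (1.47, limma adjusted p = 6.98e-06) and JMJ18 lower (-1.69, adjusted p = 2.37e-06). The other trithorax and SET genes had 7 higher and 0 lower of 9, COMPASS and Paf1 genes 7 and 0 of 9, and remodellers 8 and 0 of 10. The 45.3% of all genes called higher and 37.7% called lower stand beside these counts. In lhp1-6, 7 PRC2 and partner genes were higher and 2 lower of 10, and 4 other demethylases higher and 2 lower of 10. The other trithorax and SET genes had 6 and 1 of 9 there, COMPASS and Paf1 genes 6 and 0 of 9, and remodellers 7 and 0 of 10. Of all genes, 39.3% were called higher and 41.1% lower in lhp1-6 seed.

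FLC, the gene on which the VIN3 family is best known to act, was looked at after its values were seen. It was at 20.9, 6.86 and 6.70 TPM in wild-type fruit and at 20.4, 28.5 and 19.9 in lhp1-6 fruit, and at 88.5, 86.6 and 77.0 in Col-0 seed and 69.0, 61.0 and 59.3 in lhp1-6 seed. Col-0 fruit replicate 1 lay among the mutant fruit libraries, and after removal of the seed share the levels were 1.72, 3.94 and 2.15 TPM against 16.5, 24.2 and 15.5, with no overlap. The change in fruit was 1.10 ± 0.33 (SE, limma adjusted p = 0.0461, lost in 15 of 22 alternatives, 11 of them without 1 library) and that in seed -0.41 ± 0.33 (adjusted p = 0.433). The difference of these effects was -1.51 ± 0.46 in the common fit (SE, limma adjusted p = 0.0857), -2.01 without Col-0 fruit replicate 1 (adjusted p = 0.000203) and -2.88 with the seed share taken off (adjusted p = 0.000407). FLC was higher in Col-0 seed, and Col-0 fruit replicate 1 had the largest seed share, so that library lost the most FLC by construction. The lack of overlap after removal and the value of -2.88 therefore add no support. FLC was higher in seed than in fruit in both genotypes (2.95 in Col-0 and 1.44 in lhp1-6, limma adjusted p = 9.31e-06 and 0.00185).

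Over 21 known targets of Polycomb, VIN3-family or trithorax proteins, 3 rose and 6 fell in lhp1-6 fruit (14.9% of all genes called) and 3 rose and 4 fell in seed (12.1%). STM, a meristem homeobox gene, fell in fruit (-1.63, limma adjusted p = 0.000396) from 34.4, 49.1 and 38.1 TPM to 16.4, 9.60 and 11.8. PI, a floral organ gene, rose in fruit by 1.06 (limma adjusted p = 0.00148) from 5.77, 5.42 and 6.06 TPM to 12.6, 12.7 and 13.8. In seed, AG fell (-1.35, limma adjusted p = 0.000477) from 17.5, 16.6 and 17.7 TPM to 6.67, 6.85 and 5.07, and SOC1, a flowering integrator, rose by 1.02 (adjusted p = 0.00228) from 3.55, 2.60 and 3.40 TPM to 6.30, 8.63 and 7.52. The effects differed between tissues for 5 of the 21 (3 up and 2 down), where 5.51% of all genes passed.

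The genes whose profile over the 12 libraries was closest to each of the 10 were found by the root-mean-square difference of centred log2(TPM + 1), which describes likeness and has no test. For VIN3 they were AT1G44780, AT2G42710 and AT1G07830, at 0.174, 0.200 and 0.202 log2 units, where VIN3's own spread was 0.646. These 3 genes had means of 7.09, 7.18 and 8.58 TPM in wild-type fruit and 9.62, 12.3 and 12.4 in lhp1-6 fruit, and 19.8, 19.8 and 27.1 in Col-0 seed and 15.8, 17.7 and 23.1 in lhp1-6 seed. For ATX1 they were TRM19, AT5G17680 and MYBC1, at 0.181, 0.189 and 0.195.

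Among the 10 genes, REF6 and ELF6 were each other's nearest, at 0.130 log2 units, VEL1 and ATX2 likewise at 0.140, and the nearest to VRN5 was ELF6, at 0.163. ULT1, JMJ13, ATX1 and VIN3 had no member nearer than 0.655, 0.452, 0.375 and 0.318. For ULT1 the nearest gene of all was AT1G12080, at 0.0954, with means of 105 and 81.0 TPM in fruit and 660 and 468 in seed. VIN3, ELF6, JMJ13 and SDG8 each overlap a gene on the opposite strand, by 26, 195, 268 and 296 bases in TAIR10.1, and whether the counting used strand is not given in the sources used here.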

How the data were processed

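Per the labels' protocols, total RNA was read as 100 bp paired ends. Per the submitters' processing notes, cutadapt 1.9.1, STAR 2.5 and featureCounts were used with TAIR10; strandedness and gene lengths are not given in the sources used here. The authors deposited TPM per gene, 1 table per library; 1.33% to 2.23% of each total was not among the 26925 listed genes. Read depth cannot be had from TPM and is unknown, so the text has no counting intervals. Because TPM are shares of a total, abundant genes that rise push the rest down. In 1 table, 52 text cells in unnamed columns were not used.

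From these values, limma 3.58.1 (R 4.3.3) was fitted to log2(TPM + 1) over 19946 genes and all 12 libraries, with 1 mean per group, a variance trend and Benjamini-Hochberg adjustment over all genes. The pseudocount of 1 understates changes of low genes such as VIN3. The seed share of a fruit library was estimated as the 1st percentile, over genes of at least 50 TPM in seed, of the ratio of fruit to seed TPM. That share of the mean seed level of the same genotype was taken off, so differences between seed and fruit grow by construction. A fruit library loses more where its share or the seed level of its genotype is higher. The fits treat the estimated share as known. Other fits used a pseudocount of 0.1 or 5, a filter at 5 TPM or none, quantile normalisation or rescaling by median of ratios, array weights, only the 6 libraries compared, a replicate block, fruit values less the seed share, or 11 of the 12 libraries. Fruit and seed libraries of the same number shared deviations from their group means (correlations across genes of 0.113 to 0.192 in Col-0 and 0.128 to 0.311 in lhp1-6), so blocked values are given between tissues where they change a call. Promoter windows came from RefSeq's TAIR10.1 sequence and annotation, in which 26715 identifiers matched.

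The 10 genes, the pathway lists and the alternatives were chosen with earlier results of these data known. The text names all 10 genes, up to 3 genes per list and comparison by smallest adjusted p among those past the threshold, and the genes with the most similar profile, and gives a part of these. FLC, ULT2, VEL2 and VEL3 were named after their values were seen.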

Additional observations from a re-analysis of the deposited data

Results flagged for a closer look

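The effect of lhp1-6 on VIN3 differed between tissues by a test of the difference itself. The change in seed minus that in fruit was -1.37 on the log2(TPM + 1) scale (limma adjusted p = 0.00621), from a rise of 0.77 in fruit and a fall of -0.59 in seed, and no 2 of the 4 groups overlapped, as for 7.65% of all genes tested. Over its alternatives the difference ran from -1.80, after removal of the estimated seed share, to -0.79, with a pseudocount of 5. It was -1.53 without Col-0 fruit replicate 1 and from -1.44 to -1.25 without any other 1 library. No other of the 10 genes passed this test in the common fit.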

How the results depend on the processing

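Of the 10 genes' values, 442 of 490 kept their direction and their side of the threshold under an alternative other than leaving out 1 library, and 557 of 600 did so with 1 library left out. Part of this was fixed in advance. An estimate cannot change when the library left out is of a group not compared. Nor can it change without the filter, with the 6 libraries alone or with the block, where only the p-value can. Past the threshold in fruit were 2980 genes in all, 875 with the 6 fruit libraries alone, 21 with a replicate block and 4747 after removal of the seed share. Of the 10 genes 3 passed in fruit, 0 with the 6 libraries alone and 0 with the block. In seed, 2410 genes passed, 997 after median-of-ratios rescaling, 1116 after quantile normalisation, 10033 with array weights and 5356 with the 6 seed libraries alone. Of the 10 genes 1 passed in seed, 0 after rescaling or quantile normalisation, 8 with array weights, 3 with the 6 libraries alone, 3 with the block and 2 after removal of the seed share. The difference between tissues was called for 1100 genes, 4214 with array weights, 497 with the block and 3030 after removal of the seed share, and for 1, 2, 1 and 3 of the 10. With 1 library left out, the genes called ran from 1829 to 5730 in fruit, 662 to 4154 in seed and 427 to 4085 for the difference, each highest without Col-0 fruit replicate 1, and those among the 10 from 0 to 3 in seed and 1 to 3 for the difference. The replicate block between genotypes is given although the numbers did not pair those libraries (correlations across genes from -0.397 to 0.421). Between tissues the block changed the call of VIN3 in lhp1-6 alone among the 10.

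Some estimates changed sign, none of them past the threshold in the fit with all libraries. In fruit, SDG8 was at 0.0022 after quantile normalisation, and ULT1 at 0.17 with array weights, 0.25 after removal of the seed share and from -0.57 to 0.32 with 1 library left out. In seed, rescaling and quantile normalisation gave 0.044 and 0.038 for VRN5, 0.058 and 0.054 for ELF6, 0.019 and 0.012 for ATX2 and 0.032 and 0.042 for SDG8. For the difference between tissues, VEL1 was at -0.014 with array weights, ELF6 at -0.0068 with a pseudocount of 5, -0.093 with array weights and -0.014 after removal of the seed share, and SDG8 at 0.054 and 0.040 after rescaling and quantile normalisation. With 1 library left out they ran from -0.049 to 0.13 for VEL1, -0.083 to 0.059 for ELF6, -0.010 to 0.054 for ATX2 and -0.87 to 0.026 for ULT1. ATX1 in seed against fruit of Col-0 was at -0.043 after rescaling and from -0.12 to 0.41 with 1 library left out. The causes were not tested.

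With 3 libraries per group and no depth in TPM, small differences of these genes were not resolved. The 95% intervals of the genotype effects were widest for ULT1. Its SE in fruit was smaller, at 0.176, without Col-0 fruit replicate 1, so its wide intervals came in part from that library.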
